A study of Mus musculus with 6 samples.

Results

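Synucleins are small, soluble proteins of neurons that have little fixed structure in solution and take up a helical form on acidic lipid membranes, through a run of imperfect repeats that begins near the N terminus. β-synuclein, encoded by Sncb, is known from presynaptic terminals, where it lies close to synaptic vesicles. γ-synuclein, encoded by Sncg, is known from the cell bodies and axons of sensory, motor and retinal projection neurons, and in the retina it is widely used to label retinal ganglion cells (RGCs), the neurons whose axons form the optic nerve. The 2 genes were taken from the count table by symbol, out of 24060 genes.

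Both genes were followed in RGCs of C57BL/6 mice at E18 (embryonic day 18) and P5 (postnatal day 5), ages on either side of the loss of intrinsic axon growth ability. RGCs were immunopanned from papain-dissociated retinas, with macrophages removed by antibody and RGCs then held on dishes by antibody against Thy1 (CD90). The E18 samples were numbered 1, 3 and 4 and the P5 samples 6, 8 and 9, with no treatment, transgene or mutation in either group. Neither the number of animals in a sample nor whether samples came from separate litters is given, so p-values measure the spread between these samples, which may in part be technical. For E18 replicate 1, the header of the counts adds a 2 and a 5 to its number, and whether this stands for a pool is not given. The labels name polyA RNA, whereas the protocol names ribosomal RNA depletion. Between 81213639 and 114512853 reads were counted on genes in a sample.

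Sncg lies on the minus strand of chromosome 14 of mm10 (34370274 to 34374789, ENSMUSG00000023064.4), with 1 annotated transcript of 5 exons and 852 bases. Sncb lies on the minus strand of chromosome 13 (54758860 to 54766595, ENSMUSG00000034891.13), with 4 annotated transcripts, of which the longest coding one has 6 exons and 1351 bases. The start of both coding sequences is shown because it encodes the first membrane-binding repeats that the family shares, and because reads from such similar stretches could in principle be assigned to the wrong gene. Capitals mark the bases at which the sequences differ, over the first 135 coding bases, which is as far as both run side by side without a gap in whole codons.
Sncb: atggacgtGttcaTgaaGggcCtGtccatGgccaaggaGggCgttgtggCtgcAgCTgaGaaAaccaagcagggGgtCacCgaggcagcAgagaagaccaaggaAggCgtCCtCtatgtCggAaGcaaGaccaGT
Sncg: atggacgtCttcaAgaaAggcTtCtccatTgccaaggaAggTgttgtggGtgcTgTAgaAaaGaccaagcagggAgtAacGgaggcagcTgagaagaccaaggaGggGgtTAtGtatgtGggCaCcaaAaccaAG

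In this stretch 106 bases (78.5%) were identical and 29 differed, 22 of them at the last position of a codon, where a change often leaves the amino acid as it is. Over the whole coding sequences, 399 bases in Sncb and 369 in Sncg without the stop codon, identity was 66.4% of aligned bases. The longest stretch shared without a mismatch by the longest coding transcripts was 16 bases, and no run of 50 bases from any annotated transcript of either gene occurred in a transcript of another gene, on either strand. No annotated gene overlapped Sncb or Sncg. Whether reads were counted by strand is not given, but neither gene has an annotated partner with which it could share exons.

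Sncg was one of the most abundant transcripts of these cells. It was counted 67944, 101036 and 82204 times in E18 replicates 1, 3 and 4, and 61236, 61829 and 63315 times in P5 replicates 6, 8 and 9. As CPM (read counts scaled to a common library size by TMM), these were 819, 901 and 908 at E18 and 691, 628 and 673 at P5. All E18 samples lay above all P5 samples, and the samples of each age stood close together, with a coefficient of variation of 5.64% at E18 and 4.87% at P5. The mean was 876 ± 49.4 CPM over the E18 samples and 664 ± 32.3 over the P5 samples (SD, n = 3 each). Sncg was 1.32-fold higher at E18, with a log2 fold change of 0.40 (standard error 0.0841, 95% interval 0.21 to 0.59, adjusted p = 0.00599 in the quasi-likelihood test of edgeR).

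Sncb had far fewer counts and changed in the other direction. It was counted 912, 1017 and 957 times in E18 replicates 1, 3 and 4, and 1469, 1582 and 2852 times in P5 replicates 6, 8 and 9. In CPM it stood at 11.0, 9.07 and 10.6 at E18 and at 16.6, 16.1 and 30.3 at P5. The E18 samples again did not overlap with the P5 samples, and P5 replicate 9 stood well above the other P5 samples. The mean was 10.2 ± 1.01 CPM over the E18 samples and 20.99 ± 8.09 over the P5 samples (SD, n = 3 each), with a coefficient of variation of 9.90% and 38.5%. Counting error was at most 3.31% in any sample, well under the spread at P5. Sncb was 2.06-fold higher at P5, with a log2 fold change of E18 over P5 of -1.04 (standard error 0.240, 95% interval -1.59 to -0.49, adjusted p = 0.00898 by the same edgeR test). Without P5 replicate 9 the difference was 1.60-fold (log2 fold change -0.68, standard error 0.135, adjusted p = 0.00873 in edgeR).

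**Figure D1:**
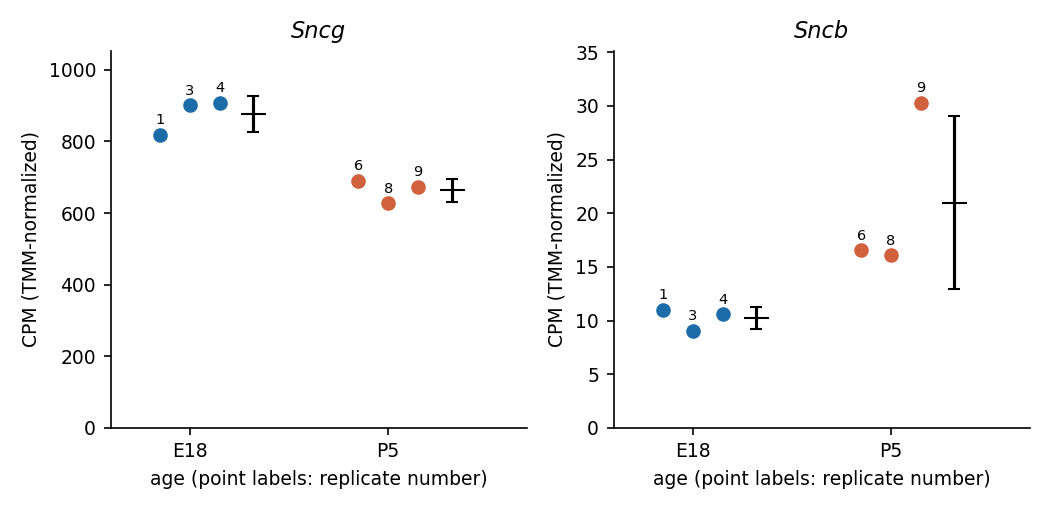
Levels of Sncg and Sncb in CPM (TMM-normalized, linear axes from 0) in each sample, with the replicate number above each point and the mean ± SD (n = 3) in black beside each age. Sncg ran from 628 to 691 CPM at P5 and from 819 to 908 at E18, whereas Sncb ran from 9.07 to 11.0 CPM at E18 and from 16.1 to 30.3 at P5, the highest value being that of replicate 9.

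Both genes therefore passed the test, in a comparison in which 43.4% of 16449 tested genes passed, 20.8% higher at E18 and 22.5% lower. A lack of overlap between the ages was also common, at 56.1% of tested genes. The genes differed from each other in the direction and size of the change. The fold change of Sncg was near the middle of the size distribution, with 50.9% of tested genes changing by less. That of Sncb was larger than in 83.2% of tested genes, and 9.53% of tested genes were at least 2-fold lower at E18 with an adjusted p under the threshold. In bulk RNA a change in the share of cells of a kind and a change in RNA per cell cannot be told apart.

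The direction of both differences was the same under each scaling, and their size moved somewhat. Sncg was 1.29-fold higher at E18 with library totals only, 1.32-fold with TMM and 1.42-fold when scaled to RGC markers. Sncb was 2.09-fold, 2.06-fold and 1.89-fold higher at P5 in that order. When libraries were scaled to the summed counts of 18 RGC marker genes in place of TMM, Sncg was 0.51 higher at E18 on the log2 scale (adjusted p = 0.00423) and Sncb 0.92 lower (adjusted p = 0.0121), both in edgeR. This sum is not a fixed standard, since Tubb3 (0.49) and Gap43 (0.51) in it were themselves higher at E18 and Nefl (-0.68) lower. As a share of those summed markers, Sncg made up 7.92%, 8.61% and 7.58% in the E18 samples and 5.79%, 5.75% and 5.43% in the P5 samples. Sncb made up 0.106%, 0.0867% and 0.0882% at E18 and 0.139%, 0.147% and 0.244% at P5. Neither gene overlapped between the ages on this scale.

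**Figure D2:**
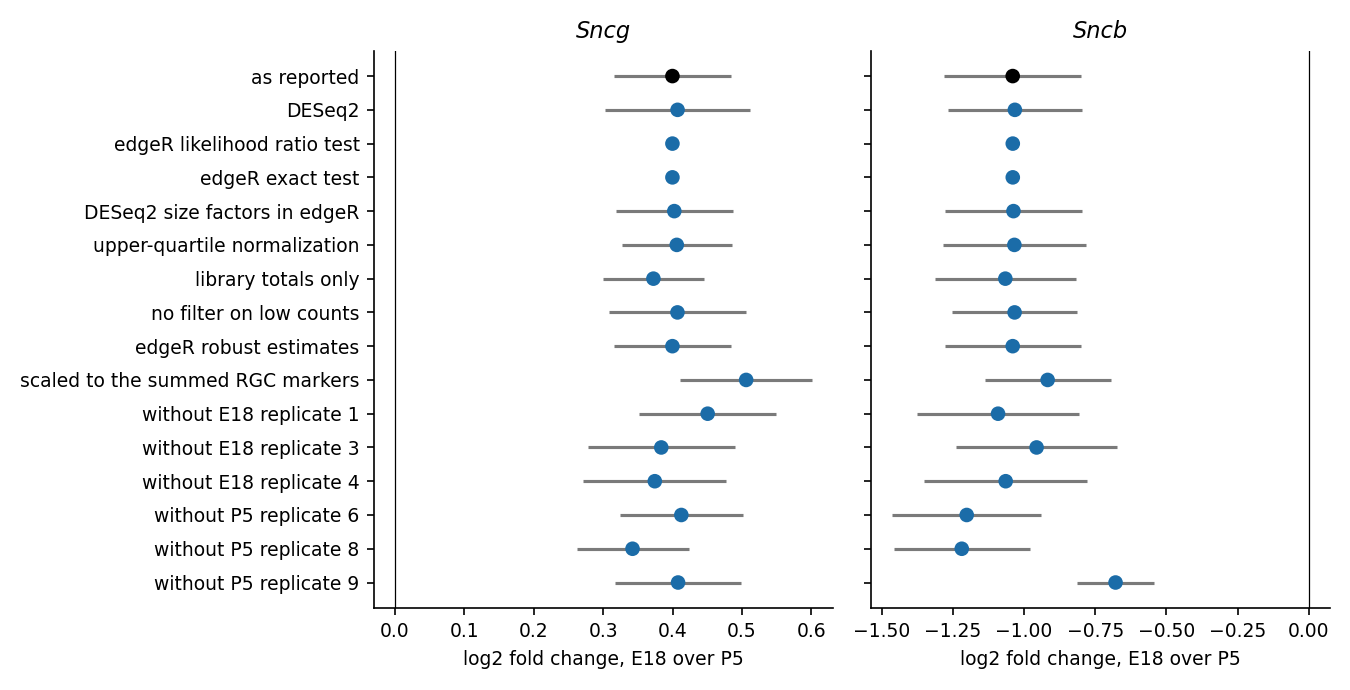
Log2 fold change of E18 over P5 for Sncg and Sncb as reported (black) and under each other test, scaling, filter and omitted sample (blue), with the standard error of the fit where the test gives one. All points of Sncg lie above 0, between 0.34 and 0.51, and all points of Sncb below 0, from -1.22 to -0.68, the last being the fit without P5 replicate 9.

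For levels of different genes to be compared, CPM was divided by the length of each gene's annotated exons. On this scale Sncg reached 961, 1058 and 1066 CPM per kilobase in E18 replicates 1, 3 and 4 and 811, 737 and 790 in P5 replicates 6, 8 and 9. It ranked number 12 of the 15662 tested genes with an annotated length in each E18 sample and 14, 14 and 15 at P5. Sncb had 4.76 ± 0.471 CPM per kilobase in the E18 samples and 9.78 ± 3.77 in the P5 samples (SD, n = 3 each). This was above 49.6% to 53.7% of these tested genes at E18 and 62.3% to 77.5% at P5.

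Per kilobase, Sncg exceeded Sncb 188-fold, 250-fold and 216-fold in E18 replicates 1, 3 and 4, and 105-fold, 98.4-fold and 55.9-fold in P5 replicates 6, 8 and 9. The ages did not overlap, and the ratio was lowest in P5 replicate 9. It was 2.60 times higher at E18, a difference of 1.38 in the mean log2 ratio (7.76 ± 0.208 against 6.38 ± 0.500, SD, n = 3 each). The two-sided exact permutation test gave p = 0.1, the smallest value that 3 samples against 3 allow. The annotated exons of Sncb cover 2145 bases over its 4 transcripts, against 1351 in the longest coding one, and RefSeq counting may not cover all of them. Divided by the longest coding transcript instead, the ratio was 118 to 158 at E18 and 35.2 to 66.1 at P5.

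Sncg was then placed among 18 other genes that mark RGCs. Per kilobase it came after Tubb3, the neuronal β-tubulin (1373 ± 105 CPM per kilobase at E18, SD, n = 3), and Gap43, a growth cone protein (1164 ± 100.3), and ahead of Nefl, the light neurofilament subunit (537 ± 82.1), with 1028 ± 58.0 for Sncg itself. The samples of Sncg at E18 lay below those of Gap43 and above those of Nefl without overlap. At P5 the order was Tubb3 (980 ± 26.7), Nefl (862 ± 163), Gap43 (820 ± 106) and Sncg (779 ± 37.9), and Sncg overlapped with both Nefl and Gap43 in its range over samples. Rbpms, an RNA-binding protein found in all classes of RGC, had 44.7 ± 3.62 CPM per kilobase at E18 and 48.1 ± 3.27 at P5.

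**Figure D3:**
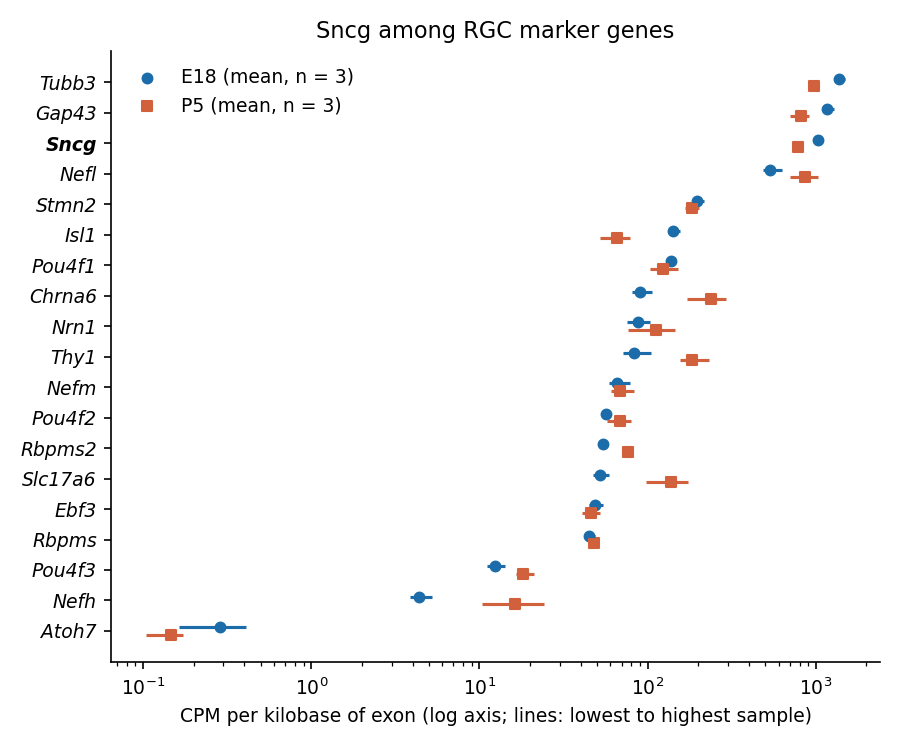
Levels per kilobase of annotated exon (CPM per kilobase, log axis) of Sncg and 18 RGC marker genes at E18 and P5, as the mean of 3 samples with a line from the lowest to the highest sample. Sncg stands with Tubb3, Gap43 and Nefl at the top of the list at both ages, in position 3 of 19 at E18 and 4 of 19 at P5.

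RGC markers had no common direction. Of the 18, edgeR's test called 3 (16.7%) higher and 7 (38.9%) lower at E18, with a median log2 fold change of -0.19, against 20.8% higher, 22.5% lower and a median of 0.00 over all tested genes. The largest rises at E18 were those of Isl1, a LIM homeodomain factor of RGCs (1.10), and Gap43 (0.51), and Tubb3 rose by 0.49. The largest falls were those of Nefh, the heavy neurofilament subunit (-1.89), and Chrna6, a nicotinic receptor subunit (-1.41). Of the genes nearest to Sncg in abundance, Tubb3 and Gap43 were thus higher at E18, as Sncg was, and Nefl was lower (-0.68 on the log2 scale, adjusted p = 0.00801 in edgeR). Thy1, the antigen of the purification, was lower at E18 as well (-1.16 on the log2 scale, adjusted p = 0.00197 in edgeR). Summed over the list, RGC markers came to 10347 to 11980 CPM at E18 and 10918 to 12402 at P5.

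Synucleins are carried along axons largely by slow transport, as are many proteins of the axonal cytoskeleton. A list for the latter, not limited to slow transport and with the growth cone protein Gap43 in it, was taken as a group of 16 genes. Of these, edgeR's test called 5 (31.3%) higher and 3 (18.8%) lower at E18, against 20.8% and 22.5% of all tested genes, with a median log2 fold change of 0.00 in both. The rises were led by Ina, the neurofilament protein α-internexin (1.03), and Gap43, and the falls were those of Nefh, Map1a, a microtubule-associated protein of mature neurons (-1.61), and Nefl (-0.68). Nefl, Nefm, Nefh, Tubb3, Stmn2 and Gap43 belong to both lists.

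Sncb was read beside 23 genes of synaptic vesicles and of the SNARE complex that fuses them with the membrane. Of these, edgeR's test called none higher at E18 and 17 (73.9%) lower, against 20.8% and 22.5% of all tested genes. The log2 fold change was negative in 20 of the 23. Their median log2 fold change was -0.66. Sncb had position 8 from the lowest among its own value and theirs, since 7 of the 23 fell further. The largest falls were those of Sv2b, a vesicle glycoprotein (-1.91, adjusted p = 0.000366), and Nsf, the ATPase that takes SNARE complexes apart (-1.54, adjusted p = 0.000723), both in edgeR. Genes that did not pass included Vamp2, the main vesicle SNARE (-0.31, adjusted p = 0.0666), Stx1a, a SNARE of the plasma membrane (-0.27, adjusted p = 0.0526), and Cplx2, a regulator of SNARE assembly (0.02, adjusted p = 0.921), in the same edgeR fit. By its level per kilobase, Sncb was low in this group, at position 19 of 24 at E18 and 20 of 24 at P5.

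**Figure D4:**
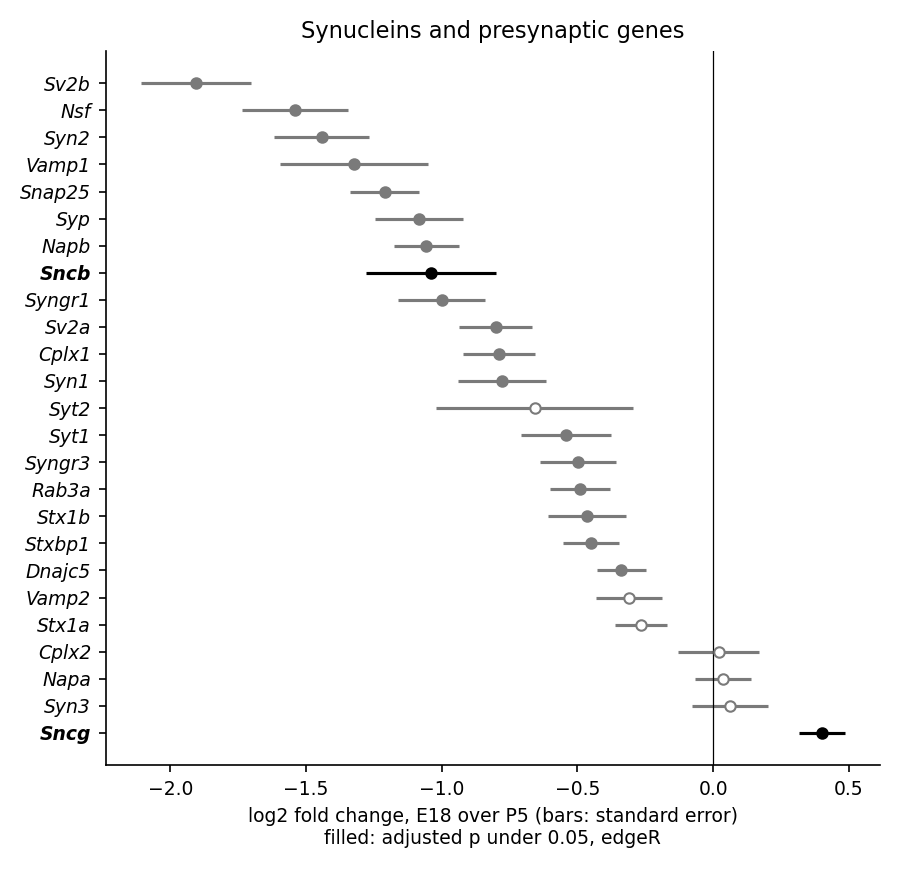
Log2 fold change of E18 over P5, with its standard error, for Sncb and Sncg (black) and 23 presynaptic genes (grey), sorted by value. Filled points have an adjusted p under 0.05 in edgeR. Sncb lies among the presynaptic genes at -1.04, and Sncg lies beyond all of them on the positive side at 0.40.

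The high value of Sncb in P5 replicate 9 was shared by most of these genes. Sncb was 1.86 times higher there than in the mean of P5 replicates 6 and 8, and 2.49% of tested genes were at least as far above. The median of the presynaptic genes was 1.37 times higher and that of all tested genes 0.996 times. Of the 23 presynaptic genes, 21 (91.3%) had their highest P5 value in replicate 9, against 33.2% of all tested genes. Summed over the group, the level was 4289, 4421 and 5004 CPM in E18 replicates 1, 3 and 4 and 7629, 6853 and 9292 CPM in P5 replicates 6, 8 and 9. Sncg did not follow it, at 1.02 times the mean of the other P5 samples.

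The genes closest to each synuclein in profile were sought among 9724 genes averaging 10 CPM or more, by the root mean square distance of log2 CPM over the 6 samples, each gene centred on its own mean. For Sncb those reported are Grm4, a metabotropic glutamate receptor (distance 0.118), Syp, the vesicle protein synaptophysin (0.132), Med9, a Mediator subunit (0.133), and Dnmt3a, a DNA methyltransferase (0.137). Each of them was highest in P5 replicate 9, with log2 fold changes from -1.18 in Grm4 to -0.95 in Dnmt3a. For Sncg they were Alg9, a mannosyltransferase (0.0169), Coro1b, an actin-binding coronin (0.0260), Scfd2 (0.0278), Sltm (0.0297) and Zdhhc14, a palmitoyltransferase (0.0352). Their levels at E18 ran from 23.1 CPM in Scfd2 to 148 in Sltm, well below the 876 of Sncg. The 6 samples share the age difference, so nearness in profile describes these samples and carries no test.

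**Figure D5:**
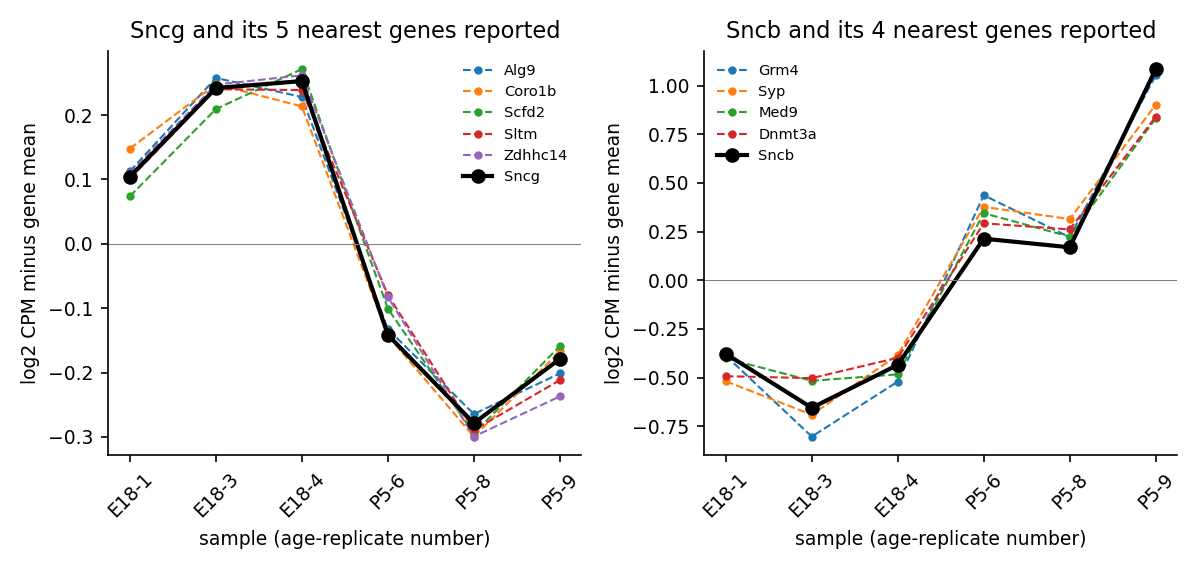
Log2 CPM of Sncg (left) and Sncb (right), with 5 and 4 of the genes nearest to them, in the 6 samples, after subtraction of each gene's mean over samples. Lines only join the values of a gene. Sncg and its neighbours drop by 0.37 to 0.41 from the E18 to the P5 samples as log2 fold changes, and the values of Sncb and its neighbours are highest in P5 replicate 9.

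Of 14 kinases and phosphatases that act on synucleins, edgeR's test called 3 (21.4%) higher at E18 and none lower, against 20.8% and 22.5% of all tested genes. Their median log2 fold change was 0.14. Those higher were Plk1 (0.98), Plk2 (0.51) and Csnk1d (0.49), of which the polo-like kinase Plk2 is known to phosphorylate β-synuclein. Plk1 is a mitotic kinase and belongs to the list of dividing cells as well. Of 20 chaperones and turnover factors, the test called 2 (10%) higher at E18, Siah2 (0.43) and Nedd4 (0.41), both ubiquitin ligases. It called 4 (20%) lower, led by the lysosomal proteases Ctsb (-0.90) and Ctsd (-0.50), against 20.8% higher and 22.5% lower over all tested genes. The median log2 fold change of the 20 was -0.08. Hspa8, the constitutive Hsc70 chaperone, had -0.13 (adjusted p = 0.365 in edgeR).

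Of the 4 nearest annotated genes, 2 entered the test, and neither passed. Gprin1, 8985 bases from Sncb, had 346 to 425 CPM at P5 and 387 to 427 at E18, with 0.12 as its log2 fold change (adjusted p = 0.364 in edgeR). Mmrn2, an endothelial gene on the opposite strand 675 bases from Sncg, had 12 to 35 counts in a sample (log2 fold change -0.46, adjusted p = 0.370 in edgeR). Fam25c, on the other side of Sncg, had at most 4 counts in a sample. Gm16249, next to Sncb, has no row in the count table.

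Markers of other cells were present at levels that differed within E18 as well as between the ages. For amacrine, progenitor, dividing-cell and horizontal-cell genes, the sum was lowest among the E18 samples in replicate 4. That sample lay within the P5 range for amacrine and progenitor genes. Summed over 12 amacrine genes, the level was 775, 968 and 647 CPM in E18 replicates 1, 3 and 4 and 531 to 656 at P5. Most of each sum was Pax6 alone, at 622 to 751 CPM at E18 and 498 to 629 at P5. Of 11 tested genes, edgeR's test called 6 higher at E18 and none lower, where 20.8% of all tested genes were higher and 22.5% lower. For 12 progenitor genes the sum was 381, 212 and 83.8 CPM in that order at E18 and 75.2 to 94.2 at P5 (7 of 12 called higher). Six6 gave 58.6 to 72.5 CPM of it at P5. For 14 dividing-cell genes it was 354, 147 and 93.5 and 72.2 to 90.2 (9 of 14 called higher). For 6 horizontal-cell genes it was 133, 231 and 66.8 and 42.9 to 48.0 (3 of 5 tested called higher). Most of this sum at E18 was Tfap2b (47.5, 119 and 1.62 CPM) and Onecut2 (44.5 to 68.6). Tfap2b belongs to the amacrine list as well and was called higher in both. E18 replicate 1, the highest of all for progenitor and dividing-cell genes, had the lowest Sncg of the E18 samples, at 819 CPM. E18 replicate 3, the highest of all for amacrine and horizontal-cell genes, had 901 CPM of Sncg, close to the 908 of E18 replicate 4. Sums for 12 genes of Müller glia and astrocytes were 529 to 625 CPM at E18 and 530 to 553 at P5. Most of this was Glul (mean 320 CPM at E18 and 251 at P5), Dkk3 (123 and 184) and Vim (87.6 and 38.7). Sox9 (0.863 and 0.171) and Aqp4 (0.372 and 0.268) were far lower. Sums for 9 oligodendrocyte genes were 93.9 to 94.4 and 56.4 to 75.5 CPM, with Mbp the largest part (mean 46.0 and 35.2). For 9 bipolar genes they were 50.2 to 74.8 and 70.3 to 98.2, most of it Prkca (mean 42.3 and 78.7). For 9 endothelial and pericyte genes they were 16.5 to 72.8 and 14.6 to 17.9. Most of the last sum in E18 replicates 1 and 3 was Kdr, a VEGF receptor, at 69.5 and 62.9 CPM. Of the 8 genes of this list that were tested, edgeR's test called 1 higher at E18 and 3 lower, with a median log2 fold change of -0.19. Photoreceptor genes came to at most 12.7 CPM, microglial genes to at most 3.32 and red blood cell genes to at most 1.82, with Hba-a1, Hbb-bs and Hbb-bt at 0 in every sample. The part of these cells in the levels of Sncb and Sncg was not tested.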

How the data were processed

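RNA of immunopanned RGCs from 3 E18 and 3 P5 samples was compared, grouped by the ages in their labels. The authors prepared libraries with ribosomal RNA depletion, mapped paired-end reads with STAR on mm10 and assigned them to RefSeq genes with HT-seq, and what they deposited are raw read counts per gene. CASAVA 1.8.2 is named in the submitters' processing notes. How reads mapping to several genes were handled is not stated. The authors also deposited normalized counts, fold changes and p-values of E18 against P5, which were not used.

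After TMM normalization, the 16449 genes that filterByExpr kept were fitted in edgeR 4.0.16 (R 4.3.3) with glmQLFit and glmQLFTest, and p-values were adjusted over all of them by Benjamini-Hochberg (threshold 0.05). CPM values use TMM-scaled library sizes. Standard errors are the log2 fold change divided by the root of the F statistic. The test was checked on simulated counts. Samples of one age differed by a chi-square of 30.5 to 141 per degree of freedom over genes, far above sampling noise, so none were merged. Counting error was at most 3.31% for Sncb and 0.404% for Sncg, so the spread between samples sets the precision. Coordinates, exon lengths and transcript sequences were those of GENCODE for mm10, matched by symbol.

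The synuclein genes and all gene lists were chosen with earlier results of these data known. The genes named are both synucleins, the largest rises and falls past the threshold in the lists close to their function and in the RGC list, the nearest annotated genes and the 5 nearest profiles, of which 1 for Sncb is not reported here. Tubb3, Rbpms, Nefl, Thy1, Vamp2, Stx1a, Cplx2, Hspa8, Kdr, Pax6, Six6, Tfap2b and Onecut2 were named after their values were seen. So were Glul, Dkk3, Vim, Sox9, Aqp4, Mbp and Prkca. Alternatives were DESeq2 1.42.0, edgeR's likelihood ratio and exact tests, other scalings, no filter on low counts, robust estimates and the omission of each sample.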

Additional observations from a re-analysis of the deposited data

How the results depend on the processing

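Sncg stayed higher at E18 and Sncb lower, with an adjusted p under 0.05, in all 15 alternatives run for each. Over the 9 other tests, scalings and filters, the log2 fold change ran from 0.37 to 0.51 for Sncg and from -1.07 to -0.92 for Sncb. When samples were left out in turn, it ran from 0.34 to 0.45 for Sncg (adjusted p 0.0111 to 0.0311 in edgeR) and from -1.22 to -0.68 for Sncb (adjusted p 0.00520 to 0.0389 in edgeR). P5 replicate 9 moved Sncb most. The difference in the log2 ratio of Sncg to Sncb was 1.09 to 1.55 when samples were left out, where the exact permutation test cannot go below 0.2. The number of genes past the threshold was 7135. It was 7104 to 7682 over the other settings, of which robust estimates (7128) were added after seeing the data, and 4575 to 8796 when samples were left out, lowest without E18 replicate 3 and highest without P5 replicate 8. Every fit, the main one included, gives a gene 1 spread for both ages. A fit without a sample thus assumes that the remaining pair varies like the other age. For Sncb the coefficient of variation was 9.90% at E18 and 38.5% at P5, so its adjusted p in the main fit rests on that assumption as well. No paired analysis was possible because the ages share no replicate number. At 912 to 2852 counts, Sncb is limited by the spread at P5 and not by depth.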
